A study of Homo sapiens with 4 samples.

Results

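Transcript levels of 8 hepatocyte lineage transcription factors were followed in Hep3B cells after knockdown of UNC50. The factors were the nuclear receptors HNF4A and HNF4G, the forkhead factors FOXA1, FOXA2 and FOXA3, and ONECUT1, CEBPA and PROX1. They were taken by name, as all probes other than controls that the array design assigns to one of these symbols, which gave 9 probes of the 42405 on the array. All 8 genes were among the 25149 that could be tested, HNF4G with 1 of its 2 probes. The rule for probes used no measured value, but the HNF4G probe that was tested is the one above background.

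Hep3B is a human hepatocellular carcinoma line, and UNC50 encodes a membrane protein of the Golgi apparatus. The cells carried a plasmid, which makes a short hairpin RNA. The paper describes pLKO.1 plasmids for shR-MOCK, shR-554 and shR-749. The control plasmid shR-MOCK was compared with 3 others, shR-467, shR-554 and also shR-749, whose names give the base of the UNC50 mRNA they target (467, 554 and 749). All 4 cultures, the mock one included, were transfected and kept in puromycin at 1 µg per ml before total RNA was taken, and no untransfected culture was analysed here. Each hairpin had 1 array, so n = 1 for mock and n = 3 for knockdown, and the 3 knockdown arrays differ in reagent as well as in culture. The 4 arrays shared 1 slide and 1 scan. The comparison asks how the transcriptome of these cells differs when UNC50 is low.

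Hepatocytes keep their identity through a small circuit of DNA-binding proteins that switch on each other and the genes for plasma proteins and metabolic enzymes. FOXA factors open compact chromatin so that other factors can bind, HNF4A is the nuclear receptor at the centre of the circuit, and ONECUT1, also called HNF6, acts early in hepatocyte and bile duct development. CEBPA drives metabolic genes and restrains cell division, and PROX1 is needed for hepatoblasts to move out of the liver bud. Several of these proteins also occur in bile duct, pancreas, gut and lung cells, so no single one defines a hepatocyte.

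On 1-colour arrays a level is the brightness of a 60-base DNA probe after hybridisation of Cy3-labelled RNA. Since probes differ in how well they bind, levels of different factors are not compared. The probes of 4 factors are shown here, 5′ to 3′ in lower case, so that it is clear which stretch of each mRNA was measured. No base is in capitals, as no part of a probe is singled out.
HNF4A: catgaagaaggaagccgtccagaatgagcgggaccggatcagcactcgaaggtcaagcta
FOXA3: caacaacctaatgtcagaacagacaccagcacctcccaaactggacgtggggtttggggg
ONECUT1: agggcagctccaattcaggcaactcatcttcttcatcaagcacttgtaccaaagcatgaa
PROX1: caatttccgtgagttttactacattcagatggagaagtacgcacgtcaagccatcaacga
On build hg19, the array annotation places the FOXA3 probe at chr19:46376181-46376240 on the plus strand. It places the ONECUT1 probe at chr15:53049751-53049810 on the minus strand and the PROX1 probe at chr1:214184905-214184964 on the plus strand. The FOXA1 probe lies at chr14:38059546-38059605, the FOXA2 probe at chr20:22562164-22562223 and the CEBPA probe at chr19:33791353-33791412, all on the minus strand. The HNF4A probe has no genome position in the annotation. The annotation assigns it to 4 of the 10 HNF4A mRNAs that RefSeq lists, and whether the others hold the same stretch was not checked. The annotation does not say whether a probe falls in coding or untranslated sequence. Among the 36 pairs of these 9 probes the longest run of bases in common, on either strand, was 9, and among the FOXA probes it was 7, so the paralogs were read through different sequence.

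The start regions of some of the factors are shown next, because the circuit works through binding sites for its own members. RefSeq promoter sequence (build GRCh38.p14, 250 bases before the start) was at hand for 5 of the 8 genes, as 6 promoters. FOXA1 and FOXA3 were picked from the values, as their transcripts lay on opposite sides of mock. Both HNF4A promoters are printed because the gene is known to start from alternative promoters. Capitals mark letters that match a searched motif on either strand.
FOXA1, chr14:37595250-37595499, minus strand: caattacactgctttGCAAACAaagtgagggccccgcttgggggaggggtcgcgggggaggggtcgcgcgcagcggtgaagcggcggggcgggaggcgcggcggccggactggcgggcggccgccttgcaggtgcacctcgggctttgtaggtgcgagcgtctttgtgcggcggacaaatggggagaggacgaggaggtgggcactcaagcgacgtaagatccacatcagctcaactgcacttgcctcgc
FOXA3, chr19:45864076-45864325, plus strand: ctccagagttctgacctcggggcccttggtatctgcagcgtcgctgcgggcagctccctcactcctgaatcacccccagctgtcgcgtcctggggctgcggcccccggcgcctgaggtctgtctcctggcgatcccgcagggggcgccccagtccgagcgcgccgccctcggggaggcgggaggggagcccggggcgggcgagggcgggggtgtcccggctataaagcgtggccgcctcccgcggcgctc
HNF4A, upstream start, chr20:44355449-44355698, plus strand: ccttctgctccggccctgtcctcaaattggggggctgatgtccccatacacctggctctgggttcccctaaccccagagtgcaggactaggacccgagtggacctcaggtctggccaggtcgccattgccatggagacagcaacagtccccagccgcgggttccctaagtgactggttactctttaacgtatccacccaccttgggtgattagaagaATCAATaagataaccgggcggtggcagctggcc
HNF4A, downstream start, chr20:44400989-44401238, plus strand: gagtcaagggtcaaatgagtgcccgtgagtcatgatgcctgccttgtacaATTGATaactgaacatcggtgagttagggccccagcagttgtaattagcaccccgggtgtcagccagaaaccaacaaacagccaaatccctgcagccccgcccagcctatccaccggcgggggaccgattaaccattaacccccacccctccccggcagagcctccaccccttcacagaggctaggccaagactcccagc
The motifs searched were TGTTTAC and TGTTTGC for forkhead factors, CAAAGTCCA for HNF4, ATTGAT for ONECUT and TTGCNNAA for C/EBP, each on both strands. No 2 of the marked matches overlap. The FOXA1 promoter holds the second forkhead form on its minus strand, 235 to 229 bases before the start, a form found in 3.23% of the 35116 promoters in the table. The upstream HNF4A promoter holds the ONECUT letters 33 to 28 bases before its start. The downstream one holds them 200 to 195 bases before. The ONECUT letters occur in 5.58% of all promoters. The promoters of FOXA3, CEBPA and ONECUT1 hold no match to any of the 5 motifs. These are matches of letters, and binding was not measured. A link between a match and the difference of a transcript from mock was not tested.

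The targeted transcript was low on all knockdown arrays. The UNC50 probe had a signal of 5010 under shR-MOCK, 1050 under shR-467, 853 under shR-554 and 947 under shR-749. After scaling, the hairpins left 24.0%, 13.7% and 18.7% of the mock level. Across the arrays 67.6% to 73.6% of the 58717 spots other than controls were well above background, a mark set by the scanner software, and no spot was saturated. The 7 hepatocyte markers ALB, AFP, APOA1, APOB, TTR, SERPINA1 and TF were well above background on all 4 arrays, with signals of 245000 to 345000 for ALB and 32600 to 94750 for AFP. In RNA from whole cultures of a single line, fewer cells expressing a gene and less RNA per cell cannot be told apart.

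None of the 8 factors differed from mock by 1.5-fold on average. FOXA1 was lower with all 3 hairpins, at 71.1% to 79.8% of mock, and FOXA3 was higher with all 3, at 129% to 147%. FOXA2 and HNF4G also lay above mock with every hairpin and PROX1 below it, while HNF4A, ONECUT1 and CEBPA lay on both sides. No difference passed limma at an adjusted p under 0.05. UNC50 itself, left at 13.7% to 24.0% of mock, did not pass either. With 1 mock array a missing call therefore does not show that a factor was unchanged.

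Values below are first the signal, background-subtracted and in scanner units, and then the scaled level, log2 of the signal minus log2 of that array's 75th percentile. The 75th percentile was 1120 under shR-MOCK, 978 under shR-467, 1390 under shR-554 and 1130 under shR-749. A signal can therefore be higher on the shR-554 array while the scaled level is lower. All differences are of scaled levels, hairpin minus mock, in log2 units, with the SD over the 3 hairpins.

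HNF4A binds fatty acids and DNA and drives a large share of liver-specific genes. Its signals were 108.5 under shR-MOCK, 145 under shR-467, 130 under shR-554 and 113 under shR-749, and the scaled levels were −3.37, −2.75, −3.42 and −3.32. The shR-467 array stood above the other 3, which lay close together. Its 2 spots (−2.77 and −2.73) lay above both mock spots (−3.40 and −3.33), whereas the shR-554 spots ran from −3.51 to −3.33. The differences were 0.61, −0.05 and 0.05, a mean of 0.20 ± 0.36 (SD, n = 3), with a 95% interval from limma of −0.71 to 1.11, or 0.613-fold to 2.16-fold. With shR-467 left out the mean was −0.0035, so the mean above mock came from that hairpin. The HNF4A probe was dim, at 4.52 to 5.69 times the lowest signal that the software marked well above background.

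HNF4G is the closest relative of HNF4A, best known from gut and kidney. The signals of its single-spot probe were 73.8, 69.7, 148 and 86.7 with mock first, then shR-467, then shR-554, then shR-749. The scaled levels were −3.92, −3.81, −3.23 and −3.70. Mock was the lowest of the 4 and shR-554 the highest, at 162% of mock, while shR-467 and shR-749 were at 108% and 116%. The mean difference was 0.34 ± 0.31 (SD, n = 3), with an interval of −0.59 to 1.27, and it was 0.17 without shR-554. There is no second spot to set the error of one array against. Signals were 2.73 to 5.23 times the lowest signal well above background. The other HNF4G probe gave 4.25 to 7.56 and was well above background on 0 of the 4 arrays, so no fold is given for it.

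FOXA1 is one of the pioneer factors of the foregut endoderm. Its probe is printed in 10 spots, and their mean signal was 5954 under shR-MOCK, 4150 under shR-467, 5254 under shR-554 and 4445 under shR-749. The scaled levels were 2.41, 2.08, 1.92 and 1.98. The mock spots ran from 2.36 to 2.48 and lay above all 30 knockdown spots, which ran from 1.84 to 2.14. The share of all probes whose mock and knockdown spots lie apart was not counted. Among the hairpins, the spots of shR-554 and shR-749 overlapped, and those of shR-467 lay just above both. Spots of 1 array share its RNA and show reading error only, with an SD of 0.0398 to 0.0499 per array. The differences were −0.32, −0.49 and −0.43, a mean of −0.42 ± 0.08 (SD, n = 3) or 1.34-fold lower, with an interval of −0.86 to 0.02. The mean lay between −0.46 and −0.38 under 13 other ways of processing the arrays, several of which left it unchanged.

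FOXA2 opens the chromatin of liver and pancreas genes and is required for endoderm itself. Its signals were 5530 under shR-MOCK, 6985 under shR-467, 7115 under shR-554 and 7665 under shR-749. The scaled levels were 2.30, 2.84, 2.36 and 2.76. The shR-467 and shR-749 arrays stood well above mock, at 145% and 137%, while shR-554, at 104%, lay within the span of the mock spots (2.25 to 2.36). The mean difference was 0.35 ± 0.26 (SD, n = 3), with an interval of −0.21 to 0.91.

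FOXA3 is the forkhead factor that appears late and stays on in adult liver. Its signals were 388.5, 439, 656 and 578 with mock first, then shR-467, then shR-554, then shR-749, and the scaled levels were −1.53, −1.16, −1.08 and −0.97. Mock was lowest. Its 2 spots (−1.56 and −1.50) lay below all 6 knockdown spots, which ran from −1.16 to −0.95. As for FOXA1, how common such a gap is over all probes was not counted. The differences were 0.37, 0.44 and 0.56, a mean of 0.46 ± 0.10 (SD, n = 3) or 1.37-fold higher, with an interval of −0.12 to 1.03. Under the other ways of processing it lay between 0.36 and 0.50.

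**Figure D1:**
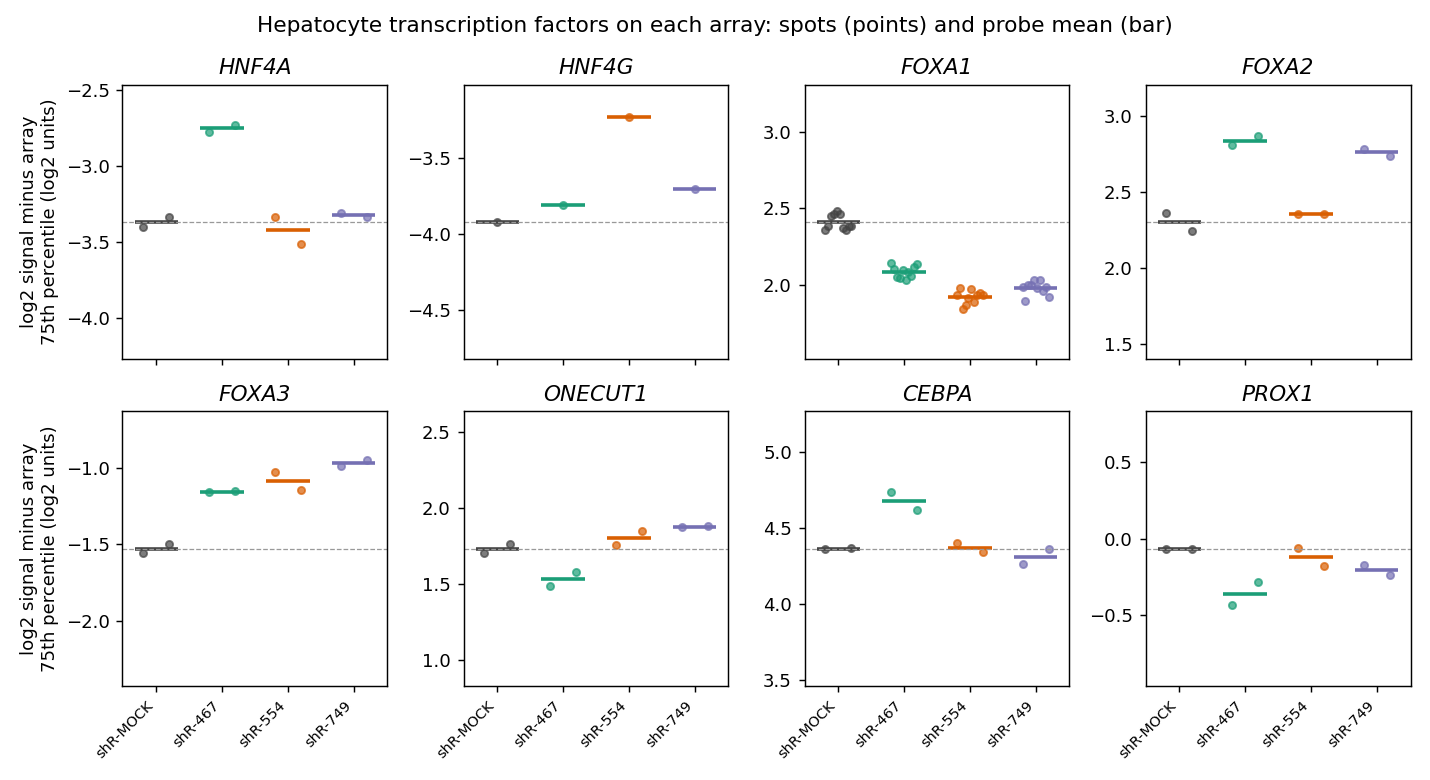
Scaled level of each factor on each array (y axis, log2 signal minus the log2 of the array's 75th percentile) for the 4 hairpin plasmids (x axis). Points are spots of the probe, bars their mean and the dashed line the mock level, and every panel spans the same number of log2 units. The 10 mock spots of FOXA1 lie above all its knockdown spots and the 2 mock spots of FOXA3 below all of its own. Spots of an array show reading error only, and the share of all probes with such a gap was not counted.

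ONECUT1 gave signals of 3725 under shR-MOCK, 2835 under shR-467, 4850 under shR-554 and 4150 under shR-749. The scaled levels were 1.73, 1.53, 1.80 and 1.88. The shR-467 array was lowest and the other hairpins lay just above mock, with overlapping spots for shR-554. The differences were −0.20, 0.07 and 0.14, a mean of 0.00 ± 0.18 (SD, n = 3) with an interval of −0.50 to 0.51. The sign of that mean turned with the processing, from −0.07 without shR-749 and −0.03 without shR-554 to 0.11 without shR-467.

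CEBPA, the C/EBP family member of resting hepatocytes, gave signals of 23050 under shR-MOCK, 25000 under shR-467, 28750 under shR-554 and 22450 under shR-749. The scaled levels were 4.36, 4.67, 4.37 and 4.31. Only shR-467 stood apart, at 124% of mock, and the other hairpins were at 100.5% and 96.5% with spots on both sides of the mock spots for shR-554. The mean difference was 0.09 ± 0.20 (SD, n = 3), with an interval of −0.37 to 0.55, and it was −0.02 without shR-467.

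PROX1, a homeobox factor that also marks lymphatic endothelium, gave signals of 1070 under shR-MOCK, 763 under shR-467, 1280 under shR-554 and 978 under shR-749. The scaled levels were −0.07, −0.36, −0.12 and −0.21. Mock was the highest of the 4, but 1 of the 2 shR-554 spots lay at the mock level. The mean difference was −0.16 ± 0.12 (SD, n = 3), with an interval of −0.70 to 0.38, and it was −0.10 without shR-467.

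**Figure D2:**
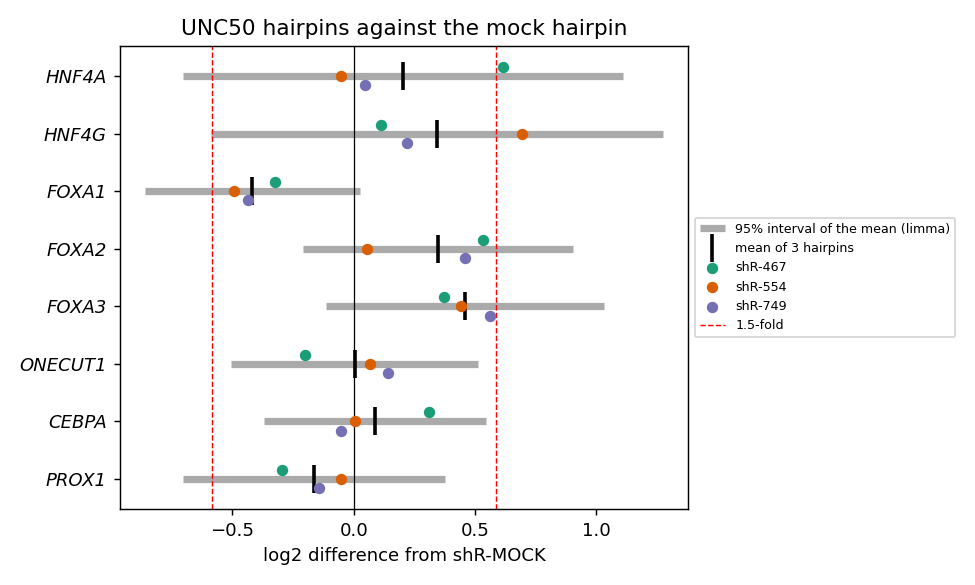
Log2 difference of scaled level from shR-MOCK (x axis) for the 8 factors (y axis). Coloured points are the 3 hairpins, black ticks their mean, grey bars the 95% interval of the mean from limma and red dashed lines 1.5-fold. All grey bars cross 0, and all points of FOXA1 and FOXA3 lie between 0 and the 1.5-fold lines on opposite sides.

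Counted over the factors, 0 of 8 reached 1.5-fold on average, where 9.98% of the 25149 genes tested did. With every hairpin at 1.5-fold or more in one direction the count was also 0 of 8, against 1.77% of all genes. Single hairpins reached it for 1 factor with shR-467 (HNF4A), 1 with shR-554 (HNF4G) and 0 with shR-749. The shares of all genes were 14.1%, 20.4% and 15.8%. Without regard to size, 3 of 8 factors were above mock with every hairpin (HNF4G, FOXA2 and FOXA3), as were 17.5% of all genes. FOXA1 and PROX1 were below it, as were 20.6% of all genes. The adjusted p was under 0.05 in limma for 0 of 8 factors and for 0% of all genes. At an unadjusted p under 0.05 limma had 0 of 8 factors and 381 genes in all.

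The median of the mean differences was 0.15 over the 8 factors and −0.03 over all genes. The median size without sign was 0.27 against 0.17, and the median SD between hairpins 0.187 against 0.250. FOXA1 and FOXA3 had both a difference larger in size than most genes and hairpins that lay close together. In size, 81.9% of genes lay below FOXA1 and 84.6% below FOXA3, while in SD only 9.97% and 12.1% did. At the other end, 1.37% of genes had a mean difference smaller in size than ONECUT1. With 1 mock array the smallest p of an exact permutation test is 0.25, and an error of the mock array itself would enter all 3 differences of a gene alike. The limma intervals take the mock array to vary as the hairpins do.

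The FOXA paralogs were also set against each other within arrays, which removes the scaling. This comparison was chosen after the values of the paralogs were seen. The log2 ratio of FOXA3 to FOXA1 was above that of mock by 0.70 under shR-467, 0.94 under shR-554 and 0.99 under shR-749, a mean of 0.88 ± 0.16 (SD, n = 3), or 1.83-fold. The ratio of FOXA2 to FOXA1 was above mock by 0.86, 0.54 and 0.89, a mean of 0.77 ± 0.19 (SD, n = 3), or 1.70-fold. FOXA3 against FOXA2 gave −0.16, 0.39 and 0.10, with no common direction. The sides of both ratios to FOXA1 follow from the choice, since FOXA1 lay below mock and FOXA2 and FOXA3 above it with every hairpin, and all ratios share the mock array. They are a description with no test.

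Of 28 other liver-enriched factors, all were tested, 1 was higher and 2 were lower than mock by 1.5-fold on average, and 0 reached it with every hairpin. Of all genes 2.29% were higher and 7.69% lower on average, so 3 of 28 is near the share of all genes. Their median difference was −0.09. The number lower was 1 without shR-467 and 0 without shR-554. CREB3L3, a liver factor of the endoplasmic reticulum that drives acute-phase and lipid genes, was higher by 0.70, 0.58 and 0.99, a mean of 0.76 ± 0.21 (SD, n = 3; limma adjusted p = 0.9998). With shR-554 it was at 149.99% of mock, just under the 1.5-fold line. NR1I2, the pregnane X receptor, was one of the lower factors by this count, but its probe was dim, with a mock signal of 31.2, and well above background on only 2 of the 4 arrays, so no fold is given for it. GATA6, an endoderm factor, was the other lower one at −0.61 ± 0.55 (SD, n = 3), with −0.68, −1.13 and −0.03. GATA6 was named after its values were seen.

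**Figure D3:**
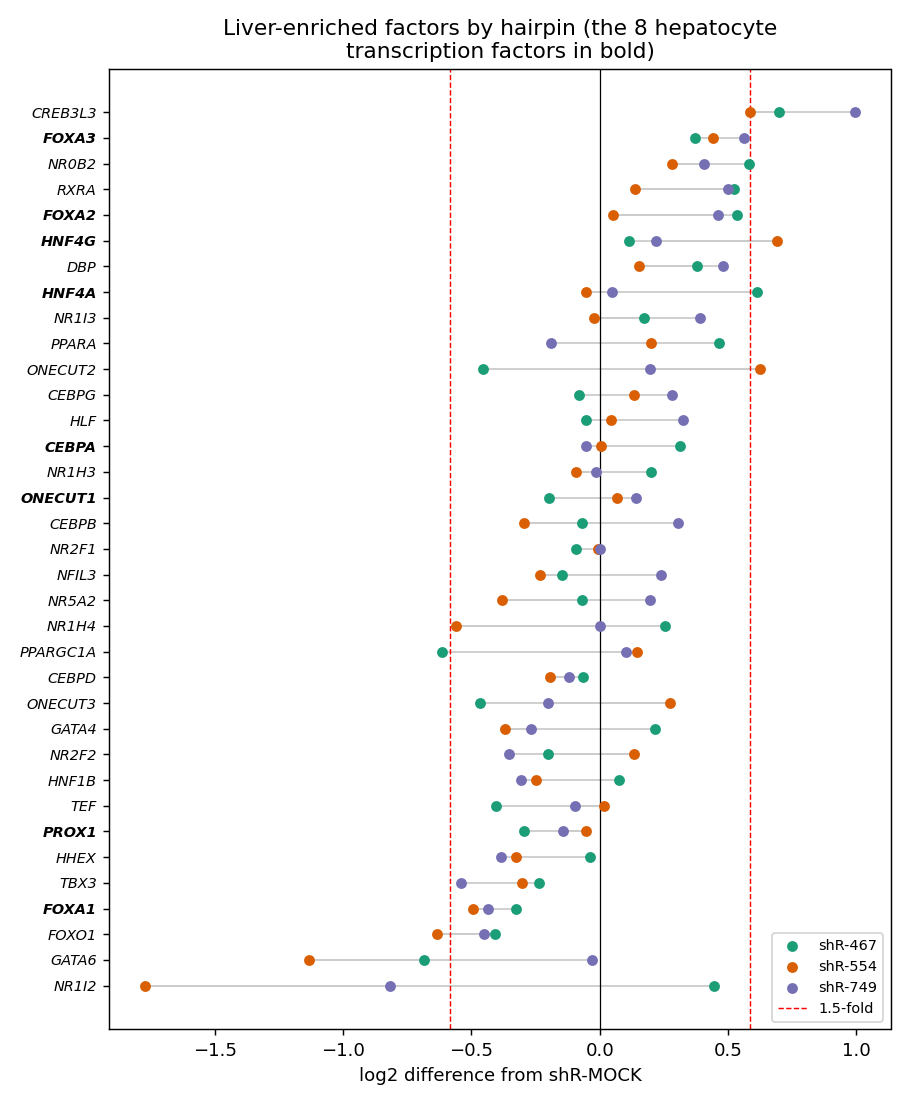
Log2 difference from shR-MOCK (x axis) for the 8 factors (bold) and 27 of the 28 other liver-enriched factors (y axis), ordered by mean. Points are the 3 hairpins, joined by a grey line, and red dashed lines mark 1.5-fold. FOXA1 lies near the bottom and FOXA3 near the top with tight points, while the points of NR1I2, which was not well above background on 2 of the 4 arrays, are not measured folds.

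The genes that the circuit is known to drive were read from lists of liver products. These lists, like that of the other factors, were chosen with earlier results of these data known, so their counts are no independent support. Of 30 genes for secreted liver products, 29 were tested (F9 was too dim), and 11 were higher and 0 lower than mock by 1.5-fold on average. Over all genes 2.29% were higher and 7.69% lower, so that 22.9% of the genes past 1.5-fold were higher, a share that was 30.1% with quantile normalization and 47.5% with normexp background correction. Without shR-554 it was 38.1%. In the secreted list 5 genes reached 1.5-fold with every hairpin and 15 lay above mock with every hairpin, against 0 that lay below. Of all genes 0.537% were higher by 1.5-fold with every hairpin, 17.5% lay above mock and 20.6% below, and all these counts share the 1 mock array. The median difference of the list was 0.30, and by hairpin it was 0.56 (shR-467), 0.21 (shR-554) and 0.26 (shR-749). In limma no gene of the list passed at an adjusted p under 0.05.

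The 5 genes with every hairpin were the fibrinogen chains FGB and FGA, APOA1, HPX and TTR. FGB differed by 0.65, 1.94 and 2.67, a mean of 1.75 ± 1.02 (SD, n = 3), and FGA by 0.68, 1.48 and 2.39, a mean of 1.52 ± 0.86 (SD, n = 3). Both were least with shR-467 and most with shR-749. APOA1, the main protein of high-density lipoprotein, was higher by 1.35, 0.60 and 1.06, a mean of 1.01 ± 0.38 (SD, n = 3). HPX, the heme carrier hemopexin, was higher by 1.47, 0.70 and 0.73, and TTR, the thyroid hormone carrier transthyretin, by 0.64, 0.65 and 1.15. In the 31 promoters at hand for 23 of the 30 genes, the C/EBP letters stood in 11 (35.5%, against 9.05% of all promoters) and the second forkhead form in 5 (16.1%, against 3.23%). The first forkhead form, the HNF4 letters and the ONECUT letters stood in 1 of the 31 each (3.23%), against 2.98%, 0.325% and 5.58% of all promoters. These shares cover the whole list, whether a gene changed or not, and count each promoter of a gene separately. They were not matched for base composition and are a description with no test.

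Of 28 hepatic metabolic genes, 22 were tested, of which 2 were higher and 1 lower by 1.5-fold on average and 0 with every hairpin, set against shares of 2.29% and 7.69% over all genes. The higher count was 1 without shR-467, 4 without shR-554 and 0 without shR-749, and the lower count was 3 without shR-467. The symbol UGT1A1 does not occur among the array's gene names, and G6PC, PCK1, TAT, CYP8B1 and TTPA did not pass the background rule. The median difference was 0.15, but it was 0.49 under shR-467, −0.25 under shR-554 and 0.22 under shR-749. ARG1, the last enzyme of the urea cycle, differed by −0.36, −1.08 and −1.64, a mean of −1.03 ± 0.64 (SD, n = 3). CPS1, which starts that cycle, was higher by 0.55, 0.40 and 0.99, a mean of 0.65 ± 0.30 (SD, n = 3). CYP2E1, an ethanol-oxidising enzyme named after its values were seen, was the other higher one, at 0.77, −0.23 and 1.36. Its probe was dim, with a mock signal of 27.35, where the lowest mock signal well above background was 21.2.

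Markers of other cell types were read for the same arrays, from lists also chosen with earlier results of these data known. Of 11 biliary and progenitor markers 10 were well above background on all 4 arrays. Their summed scaled signal was 95.8 with mock and 76.1 to 94.6 with the hairpins, in units of the 75th percentile. The median difference was −0.48 over the 10 tested, against −0.03 over all genes. By hairpin it was −0.39 (shR-467), −0.62 (shR-554) and −0.10 (shR-749). Below mock with every hairpin were 4 of the 10 and above it 1, against 20.6% and 17.5% of all genes. By 1.5-fold on average 2 were lower (20%, against 7.69% of all genes), and 0 with every hairpin. The 2 were AQP1 at −0.62 ± 0.61 and SPP1 at −0.59 ± 1.40 (SD, n = 3). With shR-749 neither was lower, AQP1 differing by 0.0015 and SPP1 by 0.75. Mesenchymal markers were well above background on all arrays for 6 of 11, with SNAI2, ZEB2, ACTA2 and COL1A1 on none, and summed to 15.1 with mock and 11.7 to 15.8 with the hairpins. In that list ZEB1, a repressor of epithelial genes, differed by 0.71 ± 0.21 and S100A4 by −0.57 ± 0.33 (SD, n = 3).

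Markers of other endoderm were well above background on all arrays for 7 of 11, with FABP2, PDX1 and NKX2-1 on none, and summed to 35.4 with mock and 29.1 to 33.4 with the hairpins. The median difference was −0.27 over the 8 tested, and 2 passed 1.5-fold below mock with every hairpin (25%, against 1.23% of all genes). CDH17, an intestinal cadherin, was among them, with differences of −0.61, −0.63 and −0.84. The other was SFTPB, which passed the background mark with mock alone, so no fold is given for it. Endothelial markers were above background on all arrays for 4 of 8, with KDR, TEK, LYVE1 and PDPN on none. Their sum was 0.289 with mock and 0.293 to 0.407 with the hairpins, with CDH5 at 0.51 ± 0.61 and FLT4 at −0.43 ± 0.07 (SD, n = 3). Both probes were dim, with mock signals of 78.5 for CDH5 and 41.15 for FLT4. All 4 leukocyte markers were well above background, with sums of 4.63 with mock and 4.40 to 5.98 with the hairpins. Most of the mock sum came from CD68 and CD14, with mock signals of 3310 and 1750. PTPRC and CD3E were dim, at 81.5 and 48.4. CD14 differed by 0.38 ± 0.41 and CD3E by −0.32 ± 0.28 (SD, n = 3). The labels name purified Hep3B cells as the only source of RNA. These sums are therefore not amounts of other cell types, and their relation to the values of the 8 factors was not tested.

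**Figure D4:**
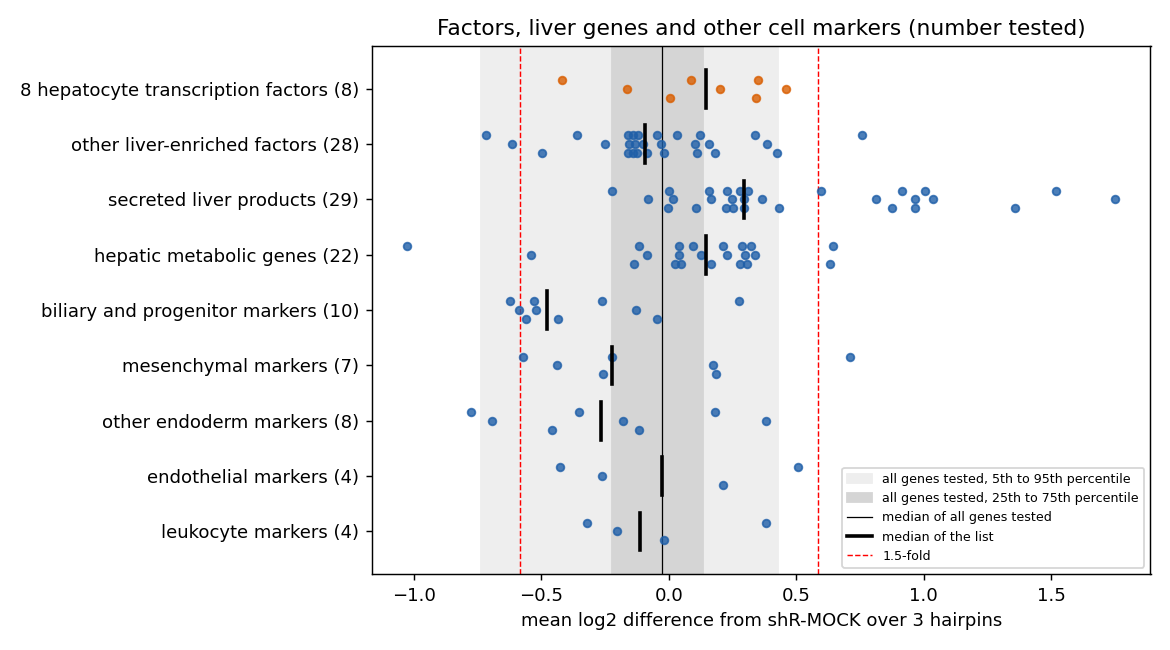
Mean log2 difference from shR-MOCK over the 3 hairpins (x axis) for the tested genes of each list (y axis, number tested in brackets). Each point is a gene, black ticks are list medians, grey bands show the central ranges of all genes tested and red dashed lines 1.5-fold. The 8 factors all lie inside the 1.5-fold lines, while 11 secreted liver products lie beyond the upper one.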

How the data were processed

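The authors hybridised Cy3-labelled RNA to 1-colour Agilent arrays (4 arrays, 62976 spots, 4259 of them controls) and deposited the output of Agilent Feature Extraction 10.7.1.1 for each. Its processed signal is an intensity with local background subtracted, and its other marks (spots well above background, saturated or outlying), also deposited, served as filters. The log2 values, also deposited by the authors, whose normalization is not given in the sources used here, were an alternative. Probes span the same 60 bases in every array, and signal over background limits the precision.

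Here log2 of the processed signal minus log2 of each array's 75th percentile was used, without marked outlier spots and with a probe's spots averaged. A probe was kept where a share of 0.5 or more of its spots passed the background mark, either with mock or with each of the 3 hairpins, and a gene was read from its kept probe with the highest mean (25149 genes). Groups came from the labels, which do not say that cultures were independent, so p-values measure only the spread between these arrays. The hairpins, which are different plasmids, were used as replicates of knockdown. Genes were counted at 1.5-fold, the threshold of the study's methods, and tested in limma 3.58.1 with a mean-variance trend (2 residual and 4.98 prior degrees of freedom) and Benjamini-Hochberg adjustment over all genes. With 1 mock array, limma takes its spread from the hairpins. The steps were run on simulated data with changes larger than those of the factors and a mock array drawn with the spread of the hairpins. That run does not bear on differences under 1.5-fold or on an error of the mock array.

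The 8 members and all lists were chosen with earlier results of these data known. Named were the members, UNC50, genes of each list at 1.5-fold with every hairpin (at most 6), and the 2 with the largest absolute mean in lists with none. Genes whose level followed a member would have been named only for members spanning 1 log2 unit over the arrays, and none did. Alternatives were quantile and median scaling, normexp with an offset of 50, the authors' values, other background filters, low signals raised to a floor, outliers kept, the mean over probes, each hairpin left out, 2-fold, limma without the trend and the methods' t-test. Promoters are from RefSeq (GRCh38.p14). Some genes of the lists are not reported here by name. R 4.3.3, data.table (version 1.17.8), Python 3.11.15, pandas 2.3.3, numpy 2.4.6 and matplotlib 3.10.9 were used.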

Additional observations from a re-analysis of the deposited data

How the results depend on the processing

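Of 104 values for the 8 factors under 13 alternatives, 97 kept their sign and 0 passed limma. FOXA1, FOXA2, FOXA3, HNF4G and PROX1 kept theirs in all 13. Low signals raised, the other background filters, outliers kept, the mean over probes and limma without the trend left every value as it was. Only the remaining alternatives could thus turn a sign. The ONECUT1 mean turned to −0.0025 with quantile normalization, −0.024 with normexp and −0.0020 with the authors' values, and ran from −0.065 to 0.11 with single hairpins left out. So did HNF4A (−0.0035 to 0.33) and CEBPA (−0.022 to 0.16), both negative without shR-467. The number of factors at 1.5-fold stayed 0 under all alternatives run, though the 2-fold threshold could not have raised it. The number on 1 side of mock was 5 or 6.

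Over all genes limma called 0 mainly and 4 with normexp. With a hairpin left out it called 0 to 2, the 2 being REG3A and REG3G without shR-554. The methods' t-test called 646 unadjusted and 0 after Benjamini-Hochberg. Of the genes at 1.5-fold, 22.9% were higher, against 30.1% with quantile scaling, 47.5% with normexp, 40.2% with low signals raised, 44.5% with all 4 arrays above background, 37.2% with no filter and 38.1% without shR-554. The share at 1.5-fold, 9.98%, was 2.14% with normexp, 6.11% with low signals raised, 5.27% with all 4 arrays above background, 15.4% with no filter and 2.73% at 2-fold. The lower count of other liver factors, 2, was 1 with quantile, normexp, the authors' values, low signals raised or the 4-array filter, 0 to 2 with hairpins left out and 0 at 2-fold. The higher count, 1, was 0 at 2-fold. Higher secreted products were 5 at 2-fold in place of 11, and 9 to 11 with hairpins left out. Higher metabolic genes, 2, were 1 with normexp, 0 to 4 with hairpins left out and 0 at 2-fold, and the lower count, 1, was 2 with no filter and 1 to 3 with hairpins left out. The cause of these shifts was not tested. A block for slide or scan could not be fitted, as there was 1 slide and 1 scan. No paired analysis was possible because mock had 1 array.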
